A study of Mus musculus with 59 samples.

Results

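Transcription factors that mark the domains of the developing neural tube and the interneurons born from them were followed across embryoid bodies exposed to mouse serum. The 9 genes were taken from the deposited value table by symbol, ignoring case and reading a dot for a hyphen, and all 9 of them had a row among its 19613 genes. They were 4 progenitor factors (Pax6, Irx3, Dbx2 and Nkx2.2) and 5 interneuron factors (Lhx1, Lhx5, En1, Gata3 and Sim1). The rule itself uses no measured value.

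The embryoid bodies came from the mouse embryonic stem cell line HBG3, which carries a green fluorescent protein driven by the motor neuron promoter HB9, and had been directed towards spinal motor neurons with retinoic acid and a hedgehog agonist. They are mixed cultures that hold motor neurons among other cells, all from 1 stem cell line. For 24 h they received serum either from male mice hemizygous for a mutant human SOD1 transgene (carrier serum, 29 arrays) or from non-carrier littermates (non-carrier serum, 30 arrays). All of these mice, carriers and non-carriers, were F1 progeny of C57BL/6 and SJL, sampled before symptoms, and the labels give 9 weeks for 53 arrays and 10 weeks for 6. The transgene was in the serum donors and not in the embryoid bodies. The comparison of the serums asks whether the cells respond to a difference in the blood of the mice.

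The neural tube is patterned along its dorsal-ventral axis by Sonic hedgehog from the floor plate and by dorsal signals, and each level of signal sets a progenitor domain with its own combination of homeodomain and basic helix-loop-helix factors. Pax6 and Irx3 are repressed by high hedgehog signalling, Dbx2 marks the intermediate domains, and Nkx2.2 marks the most ventral neural domain next to the floor plate, which gives V3 interneurons. The Olig2 domain, just dorsal to that of Nkx2.2, gives motor neurons. After cell cycle exit, Lhx1 and Lhx5 mark several ventral and dorsal interneuron classes, En1 marks V1, Gata3 marks V2b and Sim1 marks V3 interneurons. Lhx1 is also made in limb-innervating motor neurons, so a level in a mixed culture belongs to no single cell class.

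Promoter windows from 250 bases before to 50 bases after the transcription start were taken from RefSeq (GRCm38.p6). They were found for 8 of the 9 genes, with 2 windows for Pax6. Those of 4 genes are shown because they form pairs described below. The pairs are Dbx2 and En1, whose levels moved together, and Nkx2.2 and Gata3, whose run means moved in opposite directions. The windows lie at chr15:95654722-95655021 (minus strand) for Dbx2, chr1:120602237-120602536 (plus strand) for En1, chr2:147186353-147186652 (minus strand) for Nkx2.2 and chr2:9878551-9878850 (minus strand) for Gata3. Capitals mark a match to a searched motif.
Dbx2: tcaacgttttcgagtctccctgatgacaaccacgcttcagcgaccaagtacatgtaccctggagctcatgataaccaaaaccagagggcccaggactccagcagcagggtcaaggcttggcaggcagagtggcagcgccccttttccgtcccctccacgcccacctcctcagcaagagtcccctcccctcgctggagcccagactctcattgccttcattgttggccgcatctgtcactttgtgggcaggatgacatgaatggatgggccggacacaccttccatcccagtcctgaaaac
En1: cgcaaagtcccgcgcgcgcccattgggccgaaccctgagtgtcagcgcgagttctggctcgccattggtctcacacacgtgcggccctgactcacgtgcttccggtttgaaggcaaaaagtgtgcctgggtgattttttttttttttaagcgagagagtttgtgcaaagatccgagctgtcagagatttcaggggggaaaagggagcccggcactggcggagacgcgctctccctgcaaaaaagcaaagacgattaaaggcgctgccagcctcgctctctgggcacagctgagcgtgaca
Nkx2.2: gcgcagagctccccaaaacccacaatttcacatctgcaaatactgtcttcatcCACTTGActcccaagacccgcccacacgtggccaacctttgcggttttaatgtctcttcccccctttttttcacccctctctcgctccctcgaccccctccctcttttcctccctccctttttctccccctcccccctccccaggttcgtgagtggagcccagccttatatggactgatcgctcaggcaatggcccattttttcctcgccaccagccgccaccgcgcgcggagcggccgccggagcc
Gata3: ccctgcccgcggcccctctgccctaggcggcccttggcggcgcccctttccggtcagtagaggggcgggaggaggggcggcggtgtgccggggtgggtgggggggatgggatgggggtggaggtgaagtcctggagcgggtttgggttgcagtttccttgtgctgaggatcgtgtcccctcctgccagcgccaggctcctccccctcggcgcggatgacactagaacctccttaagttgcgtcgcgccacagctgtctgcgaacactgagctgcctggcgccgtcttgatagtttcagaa
Both strands were searched for the Gli motif GACCACCCA, the E-box CATATG bound by Olig2, the homeodomain motif TAATTA, the NK2 motif TNAAGTG and the TATA box TATAAA. The Nkx2.2 window held 1 NK2 motif, read on the opposite strand from base 54 of the window. The Sim1 window (chr10:50895401-50895700, plus strand, not shown) held the letters of the TATA box 2 times, both read on the opposite strand. Neither match thus reads as TATAAA in the direction of Sim1, and the later match lies after the transcription start. The other 7 windows held none of the 5 motifs. Of all 32851 promoter windows, 0.253% held the Gli motif, 3.91% CATATG, 5.29% TAATTA, 11.5% the NK2 motif and 13.6% the TATA box. These matches are letters only and were not tested as binding sites.

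The arrays were sorted by their titles into 9 runs of 4 to 11 arrays, each with both serums. Those titled motorneuron, HB9MNs and 10wk keep their titles as names, and the 6 runs of consecutively numbered arrays are called A to F. The 10-week arrays are all in the run 10wk, so that age and run cannot be told apart there, and run C has more arrays than the groups of 6 or 8 in which assays were made. Median intensities of the arrays lay between 151 and 183. The values carry no detection call. As a reference for low signal, 1032 olfactory receptor genes, which are mostly silent outside the nose, had a median log2 intensity of 4.53 with quartiles of 3.99 and 5.18. The mean log2 intensity of each of the 9 factors lay above that of 93.8% (Lhx5) to 99.9% (Lhx1) of them. Motor neuron markers were present, with run means of Isl1, a LIM homeodomain factor of motor neurons, between 10.33 (run A) and 10.77 (HB9MNs) on the log2 scale. In a mixed culture fewer cells of a type and less RNA per cell cannot be told apart.

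The levels of the 9 factors differed far more between runs than between serums. All 9 differed between runs by the moderated F test of limma, where 94% of all genes did (adjusted p under 0.05), so that passing the test sets no factor apart. The share of variance lying between runs was 92.1% for Pax6, 87.5% for Sim1, 86.7% for Lhx5, 86.3% for Gata3, 85.2% for Lhx1, 84.2% for Nkx2.2, 83.2% for Irx3, 72.8% for Dbx2 and 67.3% for En1. The median over all genes was 62.5%. Run means spanned 0.67 (Irx3) to 1.18 (Nkx2.2) on the log2 scale, where the median span over all genes was 0.53. The F test compares these title-derived runs with the arrays of a run as its replicates, and the labels do not say what separates the runs.

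**Figure D1:**
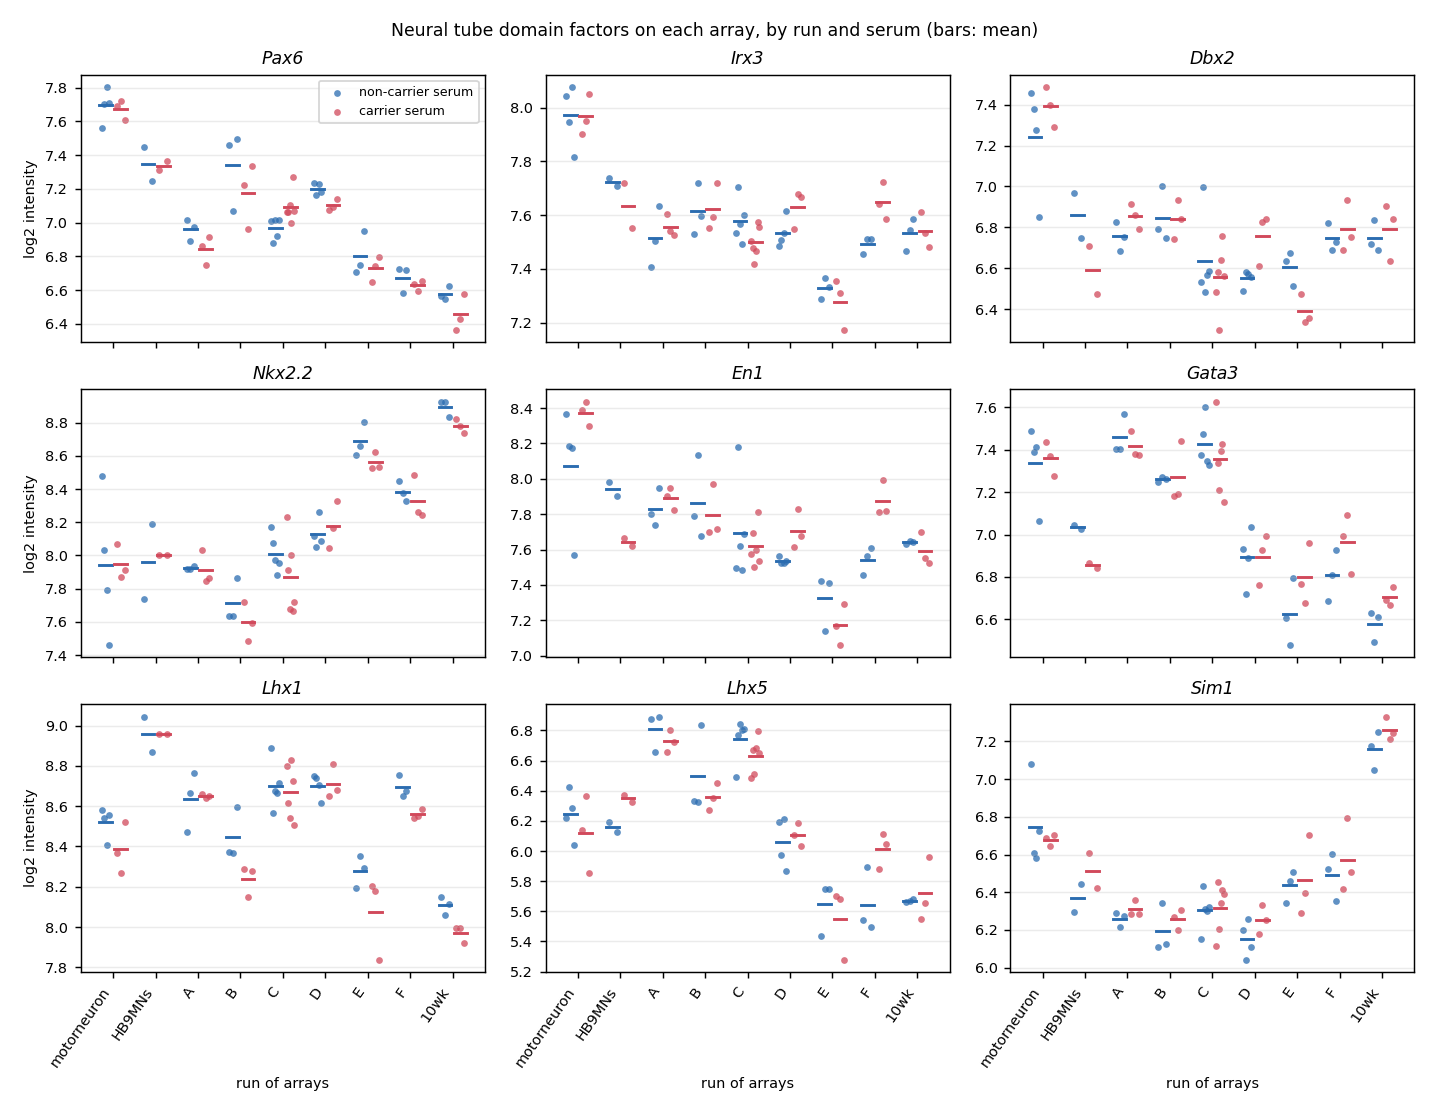
Log2 intensity of each of the 9 factors on each of the 59 arrays (vertical axis, own scale per gene) by run (horizontal axis), with non-carrier serum in blue and carrier serum in red, points for arrays and bars for the mean of a run and serum. Pax6 is highest in the run motorneuron (mean 7.69) and lowest in 10wk (6.52), while Nkx2.2 and Sim1 are highest in 10wk (8.84 and 7.21), and in most runs the points of the serums overlap.

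Pax6, a paired-type homeodomain factor of neural progenitors, had the largest share of its variance between runs. Its log2 intensity in the run motorneuron was 7.56, 7.71, 7.81 and 7.71 with non-carrier serum and 7.69, 7.72 and 7.61 with carrier serum. In the run 10wk it was 6.56, 6.54 and 6.63 with non-carrier serum and 6.36, 6.43 and 6.58 with carrier serum. Every array of the first run thus lay above every array of the second, and the run means of 7.69 ± 0.080 (SD, n = 7) and 6.52 ± 0.10 (SD, n = 6) differed 2.25-fold. Between these came HB9MNs (7.34), B (7.26), D (7.16), C (7.04), A (6.90), E (6.77) and F (6.65). Of the 8 steps in this order, those from HB9MNs to B and from B to D were smaller than the SD within runs and serums (0.10), and the arrays of neighbouring runs overlapped at all steps but the first.

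Nkx2.2, the homeodomain factor of the most ventral neural progenitors, was highest in the 3 runs where Pax6 was lowest. Its log2 intensity in the run 10wk was 8.92, 8.93 and 8.84 with non-carrier serum and 8.82, 8.78 and 8.74 with carrier serum. In run E it was 8.61, 8.66 and 8.81 with non-carrier serum and 8.53, 8.62 and 8.53 with carrier serum. In run B, the lowest, it was 7.63, 7.64 and 7.87 against 7.72, 7.49 and 7.59. The run means of 8.84 ± 0.075 (SD, n = 6) in 10wk and 7.66 ± 0.13 (SD, n = 6) in B differed 2.27-fold, the widest span of the 9 factors. Run F (8.36) and run D (8.15) followed E (8.63), and the steps between the means of HB9MNs (7.98), motorneuron (7.94), C (7.93) and A (7.92) were below the SD within runs and serums (0.17). The run motorneuron held the widest spread, from 7.46 on its non-carrier array 4 to 8.48 on its non-carrier array 1.

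Irx3, an Iroquois homeodomain factor of progenitors dorsal to the motor neuron domain, and Dbx2, a homeodomain factor of the progenitors of V0 and V1 interneurons, shared their highest and lowest run. The log2 intensity of Irx3 in the run motorneuron was 8.05, 7.95, 8.08 and 7.82 with non-carrier serum and 7.90, 7.95 and 8.05 with carrier serum. In run E it was 7.29, 7.36 and 7.33 against 7.35, 7.31 and 7.17. These 2 runs stood apart from their neighbours with no overlap of arrays, and the other 7 run means of Irx3 lay between 7.54 and 7.68 with each step below the SD within runs and serums (0.077). Dbx2 had a run mean of 7.31 in motorneuron, where 6 arrays lay between 7.28 and 7.49 and non-carrier array 4 at 6.85. Its lowest run mean was 6.50, in run E. The step down from motorneuron was the only one of its 8 steps above the SD within runs and serums (0.14).

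En1, the engrailed homeodomain factor of V1 interneurons, had the same highest and lowest run as Irx3 and Dbx2. Its log2 intensity in motorneuron was 8.37, 8.18, 8.17 and 7.57 with non-carrier serum and 8.39, 8.44 and 8.30 with carrier serum. In run E it was 7.42, 7.14 and 7.41 against 7.17, 7.06 and 7.29. All 7 arrays of the first run lay above all 6 of the second, and the other 7 run means lay between 7.61 and 7.86. The non-carrier array 4 of motorneuron was the lowest of its run for 5 of the 9 factors (Irx3, Dbx2, Nkx2.2, En1 and Gata3).

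The run with high Irx3, Dbx2 and En1 was also the run with a high low-signal level. The olfactory receptor genes had a mean log2 intensity of 4.94 in motorneuron and of 4.54 to 4.70 in the other runs, with 4.64 in run E. Of all genes 48.9% had their highest run mean in motorneuron, 30.8% their lowest in run E and 25.9% both. Of 35 markers of pluripotent, endoderm, mesoderm, trophoblast and blood cells 24 had both, including all 5 blood cell markers. The mean log2 intensity of these 35 markers was 6.60 in motorneuron, 5.91 in run E and between 6.03 and 6.26 in the other runs. Of the 9 factors 3 had both, and of the 59 other neural tube domain factors 31. With the olfactory receptor level of each array as a covariate, added after the data were seen, the F of the run fell from 16.8 to 5.97 for Dbx2 (adjusted p = 3.49e-05), from 28.7 to 17.1 for Irx3 and from 13.3 to 9.49 for En1, and all 9 factors were still called. Over the 9 run means, r with the olfactory receptor level was 0.87 for Dbx2, 0.71 for Irx3 and 0.67 for En1. None of these passed (adjusted exact permutation p = 0.0970, 0.209 and 0.209). Without the 2 runs farthest from the median olfactory receptor level, r was 0.30, -0.061 and 0.053. Relations within runs are given below. How much of the levels of these 3 genes goes with the low-signal level was not tested further.

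Gata3, a zinc finger factor of V2b interneurons, and Lhx5, a LIM homeodomain factor of several interneuron classes, followed a shared order of runs that opposed that of Nkx2.2. Gata3 was highest in run A, with log2 intensities of 7.40, 7.41 and 7.57 with non-carrier serum and 7.49, 7.38 and 7.37 with carrier serum. It was lowest in 10wk, with 6.63, 6.49 and 6.61 against 6.69, 6.67 and 6.75. Its run means formed an upper set of A (7.44), C (7.39), motorneuron (7.35) and B (7.27), and a lower set from HB9MNs (6.94) down to 10wk (6.64), with no array of B as low as any array of HB9MNs. Lhx5 was also highest in A (6.77) and C (6.68) and lowest in F (5.83), 10wk (5.70) and E (5.60). In run E its log2 intensity was 5.44, 5.75 and 5.75 with non-carrier serum and 5.70, 5.68 and 5.28 with carrier serum. The arrays of run E thus lay below the arrays of A, which ranged from 6.66 to 6.89.

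Lhx1, a LIM homeodomain factor of the same subfamily as Lhx5, had another order of runs. It was highest in HB9MNs, with log2 intensities of 9.04 and 8.87 with non-carrier serum and 8.96 and 8.96 with carrier serum. It was lowest in 10wk, with 8.15, 8.06 and 8.12 against 8.0, 8.0 and 7.92. The run means of D (8.71), C (8.68), A (8.64) and F (8.63) followed HB9MNs (8.96) and differed from each other by less than the SD within runs and serums (0.10). Those of motorneuron (8.46), B (8.34), E (8.18) and 10wk (8.04) were each lower by more than that SD.

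Sim1, a basic helix-loop-helix PAS factor of V3 interneurons, stood out in the 10-week run. Its log2 intensity there was 7.17, 7.05 and 7.25 with non-carrier serum and 7.33, 7.21 and 7.24 with carrier serum. In the 53 arrays of the other runs it reached 7.05 only once, on non-carrier array 1 of motorneuron (7.08). The run mean of 7.21 in 10wk was 0.49 above the next, that of motorneuron (6.72), and 2.02-fold above the lowest, that of D (6.20). F (6.53), E (6.45) and HB9MNs (6.44) came between, and C, A, B and D lay between 6.20 and 6.31, within the SD within runs and serums (0.13).

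None of the 9 factors differed between the serums after adjustment over all genes. In the limma fit with the run as a block 0 of 9 passed an adjusted p of 0.05, where 2.33% of all genes did, 1.65% lower and 0.683% higher with carrier serum. At an unadjusted p under 0.05 1 of 9 passed (Lhx1), where 20.7% of all genes did. The carrier minus non-carrier changes lay between -0.089 (Lhx1) and 0.049 (Sim1) on the log2 scale, and their 95% confidence intervals reached from -0.14 (Lhx1) to 0.13 (En1). By sign 5 were above 0 and 4 below. These counts were 3 and 6 with the arrays centred on their median and 4 and 5 with quantile normalization. With the olfactory receptor level as a covariate they were 1 and 8. The median change over the 9 factors was 0.0060 and over all genes 0.016. Nothing in the labels says whether each serum came from a mouse of its own, and p-values measure the spread between these arrays.

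**Figure D2:**
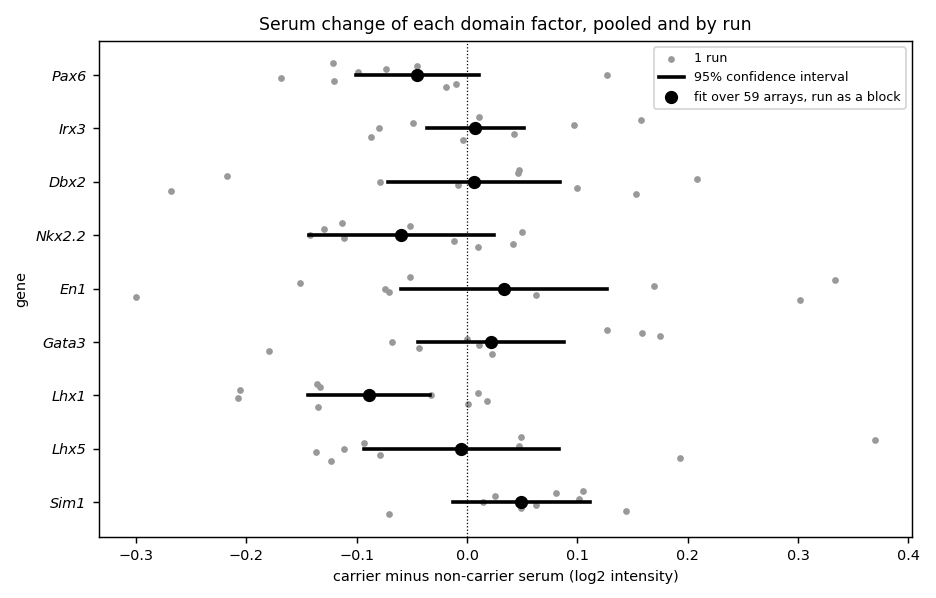
Carrier minus non-carrier difference in log2 intensity (horizontal axis) for each of the 9 factors (vertical axis), as grey points for the 9 single runs and a black point with its 95% confidence interval for the fit over 59 arrays with the run as a block. Only the interval of Lhx1 (-0.14 to -0.033) leaves out 0, and its adjusted p is 0.0664.

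Lhx1 came closest to a call. With carrier serum its log2 intensity ran from 7.84 to 8.96 with a median of 8.54, and with non-carrier serum from 8.06 to 9.04 with a median of 8.6. In run B it was 8.29, 8.15 and 8.28 with carrier and 8.37, 8.37 and 8.59 with non-carrier serum. In run F it was 8.54, 8.55 and 8.59 against 8.75, 8.65 and 8.68, and in 10wk it was 8.0, 8.0 and 7.92 against 8.15, 8.06 and 8.12. In these 3 runs every carrier array lay below every non-carrier array, and in the other 6 runs the serums overlapped. Runs without overlap, in either direction, also numbered 3 for Dbx2 and for En1 and 2 for Gata3. Their count thus does not set Lhx1 apart, and the share over all genes was not computed. The change was -0.089 ± 0.028 (SE), with a 95% interval of -0.14 to -0.033 and an adjusted p of 0.0664 (limma). The mean was lower with carrier serum in 6 of 9 runs, with differences from -0.21 in run B to -0.032 in run C, and the differences in HB9MNs, A and D were 0.00095, 0.018 and 0.010. The adjusted p was 0.0235 without run C, 0.0489 without the 2 arrays that a Grubbs' test called (non-carrier array NCAR115 of run C and carrier array HEMI138 of run E), 0.0172 with array weights and 0.0356 with genes below the median level left out. The change was -0.059 (adjusted p = 0.452) with the olfactory receptor level as a covariate, -0.055 (adjusted p = 0.680) with Olig2, Mnx1, Isl1 and Lhx3 in place of the run, and -0.17 (adjusted p = 0.347) in runs E and F alone. Over all alternatives the adjusted p lay between 0.0172 and 0.995.

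The differences of the progenitor factors were small beside the spread of the arrays. For Pax6, carrier arrays ran from 6.36 to 7.72 in log2 intensity with a median of 7.06, and non-carrier arrays from 6.54 to 7.81 with a median of 7.01. The change of Pax6 was -0.045 ± 0.028 (SE, adjusted p = 0.339, limma), lower with carrier serum in 8 of 9 runs and higher by 0.13 in run C. Without run C the change was -0.084 (adjusted p = 0.0618). In run D all 3 carrier arrays (7.07, 7.09 and 7.14) lay below all 4 non-carrier arrays (7.23, 7.16, 7.23 and 7.18). Pax6 had only this 1 run without overlap, and the share over all genes was not computed. For Nkx2.2, carrier arrays ran from 7.49 to 8.82 with a median of 8.03, and non-carrier arrays from 7.46 to 8.93 with a median of 8.08. Its change was -0.060 ± 0.042 (SE, adjusted p = 0.400, limma), lower in 6 of 9 runs. Irx3 (0.0073 ± 0.022, adjusted p = 0.865) and Dbx2 (0.0060 ± 0.039, adjusted p = 0.939) were each higher in 5 of 9 runs, and both changes took the opposite sign with the arrays centred on their median. With Olig2, Mnx1, Isl1 and Lhx3 beside the run as covariates, Pax6 passed as lower (-0.095, adjusted p = 0.0250) and Irx3, Dbx2 and En1 as higher (0.060, 0.11 and 0.14), in a fit that called 6126 of all genes. The study used these 4 genes for batch correction in another way, in a model built on assays with non-carrier serum. Without covariates Olig2, Lhx3 and Isl1 changed by -0.085, -0.086 and 0.053 themselves (adjusted p = 0.0936, 0.105 and 0.114, limma). This fit thus also takes off any response to the serum that they carry. With array weights Pax6 had an adjusted p of 0.0465.

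Among the interneuron factors Sim1 was higher with carrier serum in 8 of 9 runs, yet the serums overlapped in every run. Its log2 intensity ran from 6.11 to 7.33 with a median of 6.40 with carrier serum and from 6.04 to 7.25 with a median of 6.34 with non-carrier serum, a change of 0.049 ± 0.031 (SE, adjusted p = 0.351, limma). The changes of Lhx5 (-0.0054 ± 0.044, adjusted p = 0.953), Gata3 (0.021 ± 0.033, adjusted p = 0.721) and En1 (0.033 ± 0.047, adjusted p = 0.691) were below their standard errors. For these 3 genes the runs went in opposite directions. En1 in run F was 7.81, 8.0 and 7.82 with carrier and 7.46, 7.56 and 7.61 with non-carrier serum, a difference of 0.33. In HB9MNs it was 7.67 and 7.62 against 7.98 and 7.90, a difference of -0.30. In both runs the serums did not overlap, in opposite directions. These runs hold only 3 (F) and 2 (HB9MNs) arrays of each serum, and the share of all genes without overlap was not computed. A test of whether the serum change differed between runs gave En1 the smallest p of the 9 factors, 0.0267 (adjusted p = 0.556, limma). It called 0 of 9 factors, where 0.127% of all genes passed. Gata3 was lower with carrier serum in HB9MNs (-0.18) and higher in E, F and 10wk (0.17, 0.16 and 0.13), and Lhx5 differed by 0.37 in run F.

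Relations between the factors were different over runs and within runs. Over the 9 run means 54 relations were computed, 36 between pairs of factors and 18 with Shh and with the olfactory receptor level, with exact two-sided permutation tests adjusted over all 54. Lhx5 and Gata3 moved together (Pearson's r = 0.91, adjusted exact permutation p = 0.0429, Spearman's rho = 0.93, adjusted p = 0.0354, n = 9 runs), and r was 0.86 without the 2 runs farthest from the median of Lhx5. Nkx2.2 moved against both, with r = -0.85 to Gata3 (adjusted exact permutation p = 0.0430, rho = -0.90, adjusted p = 0.0365) and r = -0.85 to Lhx5 (adjusted exact permutation p = 0.0486, rho = -0.92, adjusted p = 0.0354). Without the 2 farthest runs these were -0.68 and -0.70. Dbx2 and En1 (r = 0.91, adjusted exact permutation p = 0.0429) had a rho of 0.83 with an adjusted p of 0.0893, and r = 0.66 without the 2 farthest runs. The r of Irx3 with En1 (0.93) and with Dbx2 (0.90) also passed, but without motorneuron and E, the 2 runs farthest from the median of Irx3, it was 0.39 and 0.17, so that both rest on these runs.

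**Figure D3:**
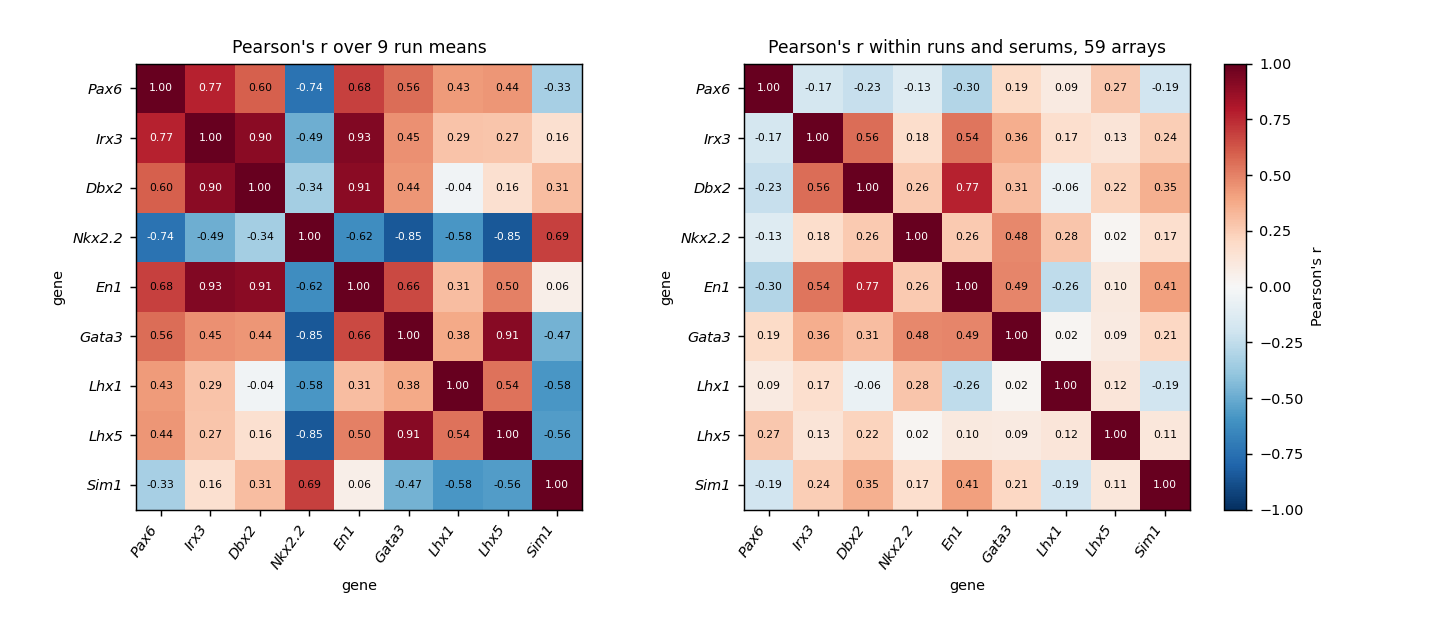
Pearson's r between the 9 factors (both axes; printed in each cell, colour from -1 in blue to 1 in red) over the 9 run means (left) and over 59 arrays after the mean of each run and serum was taken off (right). Lhx5 and Gata3 are at 0.91 over run means and 0.09 within runs, whereas Dbx2 and En1 are at 0.91 and 0.77.

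Within runs, with the mean of each run and serum taken off, 45 relations over the 59 arrays were tested with 100000 permutations inside runs and serums. Dbx2 and En1 moved together from array to array (r = 0.77, adjusted permutation p = 0.00113, rho = 0.65, adjusted p = 0.0012, r = 0.62 without the 2 farthest arrays). This is not particular to the pair. Of all 19613 genes, 3904 had r over 0.5 with Dbx2 and 4367 with En1, the nearest at 0.87 and 0.90. Irx3 moved with Dbx2 (r = 0.56, adjusted permutation p = 0.0054) and with En1 (r = 0.54, adjusted permutation p = 0.0154), and Gata3 moved with En1 (r = 0.49, adjusted permutation p = 0.0266). Nkx2.2 and Gata3, opposed over runs, had a positive r of 0.48 within runs (adjusted permutation p = 0.0365), with a rho of 0.32 that missed (adjusted p = 0.142). No pair of factors passed with a negative sign. The same array-to-array deviations ran along with the low-signal level, with r to the olfactory receptor mean of 0.57 for En1 (adjusted permutation p = 0.00045), 0.54 for Sim1 (0.0018) and 0.46 for Dbx2 (0.00405). Lhx5 and Gata3, together over runs, had an r of 0.09 within runs.

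Shh, the ventral signal itself, had the widest range of run means among the domain factors and was set beside the 9 factors after its values were seen. Its run mean ran from 6.95 in HB9MNs to 10.45 in 10wk, with 9.29 in E and 9.68 in F, a span of 3.50 on the log2 scale. In these last 3 runs Nkx2.2 had its 3 highest and Pax6 its 3 lowest means. The r of the run means with Shh was 0.81 for Nkx2.2 and -0.81 for Pax6, and both missed after adjustment (adjusted exact permutation p = 0.0573 for each). Spearman's rho was 0.57 for Nkx2.2 and -0.83 for Pax6 (adjusted exact permutation p = 0.364 and 0.0893). Without the 2 runs farthest from the median of Shh, r was 0.59 and -0.58. Lhx1 (r = -0.75), Lhx5 (-0.75) and Gata3 (-0.70) also had negative r, with adjusted exact permutation p of 0.0970, 0.0970 and 0.137. Pax6 against Nkx2.2 gave r = -0.74 (adjusted exact permutation p = 0.0970). Foxa2, a floor plate factor upstream of Shh, had its highest run mean in the same run as Shh (8.96 in 10wk).

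**Figure D4:**
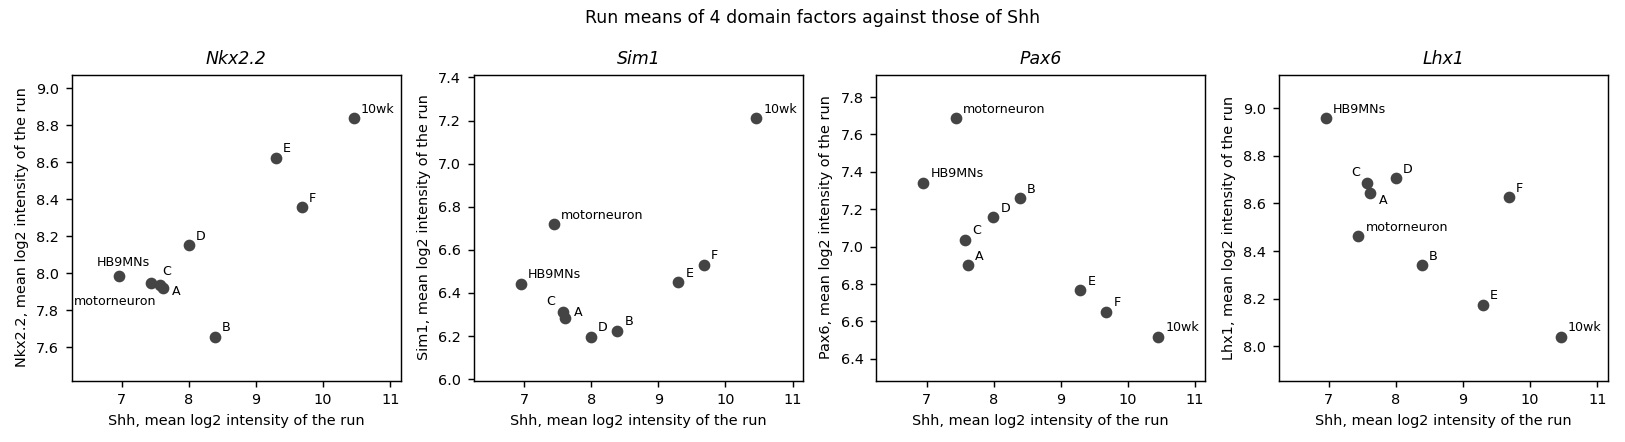
Mean log2 intensity of Nkx2.2, Sim1, Pax6 and Lhx1 in each run (vertical axes) against that of Shh (horizontal axes), 1 labelled point per run. Runs E, F and 10wk have Shh above 9 and hold the 3 highest means of Nkx2.2 and the 3 lowest of Pax6, whereas Sim1 is high in 10wk (7.21) and not in E (6.45).

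Other factors of the neural tube domains were read beside the 9. Of 60 listed genes 59 had a row, and 1 of 59 was called between serums, where 2.33% of all genes were. This was Lmo4, a LIM-only cofactor of V2 interneurons and motor neurons, which was lower with carrier serum (-0.12, adjusted p = 0.0442, limma). By sign alone, 44 were higher and 15 lower with carrier serum, with a median of 0.045 against 0.016 over all genes, of which 11984 were higher and 7629 lower. Of the 15 lower ones 6 were V2 interneuron factors and 6 ventral progenitor factors. With the olfactory receptor level as a covariate the signs were 24 higher and 35 lower. All 12 dorsal interneuron factors had a positive sign (9 of 12 with that covariate), with the smallest p for Wt1 (0.11, adjusted p = 0.142), a zinc finger factor of dI6 interneurons. Of the 10 ventral progenitor factors 6 had a negative sign, with the smallest p for Olig2 (-0.085, adjusted p = 0.0936), the factor of the motor neuron progenitor domain. The call of Lmo4 was lost in 14 of 28 alternatives. All 59 differed between runs.

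Single genes of the domain lists were read for the smallest p between serums and the widest span of runs. Between serums these included Neurog1 (-0.10, adjusted p = 0.193) of the dorsal and intermediate progenitors, En2 (0.078, adjusted p = 0.328) of V1 and Uncx (0.11, adjusted p = 0.123) of V3. Between runs, Prdm13 and Evx1 spanned 1.22 and 1.03 and were highest in motorneuron and lowest in run E, as Irx3, Dbx2 and En1 were. Lbx1 was highest in motorneuron and lowest in F, with a span of 1.26. Nkx2.9, a close relative of Nkx2.2, was highest in E (9.14) and lowest in A (7.44), with a span of 1.70.

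Markers of other cell types were read beside these results. Of 72 listed genes 68 had a row, and 2 were called, both higher with carrier serum, Slc5a7, the choline transporter of cholinergic neurons (0.15, adjusted p = 0.0410, limma), and Krt8, a keratin of simple epithelia (0.14, adjusted p = 0.0239, limma). Of all genes 2.33% were called. Slc5a7 does not stand for its list, since of the 7 measured motor neuron markers 3 were higher and 4 lower with carrier serum. Their median change was -0.023, and Chat, the enzyme that makes acetylcholine, was among the lower ones (-0.023, adjusted p = 0.533, limma). By sign, 54 markers were higher and 14 lower, where 11984 of all 19613 genes and 828 of 1032 olfactory receptors were higher. With the olfactory receptor level as a covariate 30 markers were higher and 38 lower, and 9294 of all genes higher. The mean log2 intensity of the 68 markers on an array ranged from 6.74 to 7.47 with carrier and from 6.82 to 7.43 with non-carrier serum, so that the serums overlapped. No marker is at 0 on this scale. Otx2, Dppa3 and Afp, of forebrain, pluripotent and endoderm cells, had mean log2 intensities below the upper quartile of the olfactory receptors (5.18). Sox2, the neural progenitor marker with the widest span of runs, was highest in 10wk and lowest in motorneuron (9.96). The 7 neural progenitor markers did not share this order. Sox1 (8.25) and Sox3 (8.48) were highest in motorneuron and lowest in run E.

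The genes nearest to each factor were sought in the array-to-array deviations from the mean of run and serum, over 59 arrays and all genes. For Nkx2.2 these were Notch1 (r = 0.82), Trak1 (0.80) and Sox9 (0.79), of which Notch1 is the receptor that keeps neural progenitors undifferentiated and Sox9 a factor of progenitors and glia. For Dbx2 they were Tmco4 (0.87), Pabpc2 (0.87) and Mapk15 (0.86), and for En1 Cldn19 (0.90), Notch4 (0.89) and X4931408A02Rik (0.89). Dbx2 had 3904 genes and En1 4367 genes with r over 0.5, whereas Pax6 had 21 and Lhx5 27. The nearest genes of Pax6 were Pppde1 (0.57), Ankrd29 (0.55) and Ccdc14 (0.55), and those of Lhx5 Vstm2b (0.60), Eral1 (0.59) and Gm10532 (0.58). Irx3 was nearest to Sh2b3 (0.76), Lhx1 to Porcn (0.72), Gata3 to Cma1 (0.67) and Sim1 to Steap2 (0.74). Porcn acylates Wnt ligands for secretion. The arrays come from the same runs and share their low-signal level, and the values are given as a description.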

How the data were processed

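Gene expression was measured on 59 Affymetrix Mouse Exon ST arrays, 1 per serum sample (29 carrier, 30 non-carrier). Each deposited value is a linear intensity. The authors obtained these by RMA in aroma.affymetrix and averaged the exons of a gene. They had left out arrays called by Grubbs' test. The submitters' processing notes also name Affymetrix Expression Console. The number of arrays limits the precision.

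Log2 intensities (pseudocount 0) of all 19613 genes were fitted in limma 3.58.1 (R 4.3.3; lmFit, eBayes, two-sided) with serum and the run as a fixed block and Benjamini-Hochberg adjustment over all genes at a threshold of 0.05. Moderated F tests covered the run, with serum as a covariate, and the interaction of run and serum. Runs come from the titles. No gene was filtered out. The procedure was tested on simulated data. Alternatives covered the block, covariates, scaling, pseudocount, filters, variance model, weights and runs or arrays left out. The named genes are the 9 factors, in each list of other domain or cell type genes the called genes or else the gene with the smallest adjusted p, the gene with the widest range of run means, and the 3 genes nearest to each factor by r. Shh, the olfactory receptors and further list genes named as examples were chosen after their values were seen. Some of the genes that this rule names are not reported here. The 9 factors and the lists were chosen with earlier results of these data known.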

Additional observations from a re-analysis of the deposited data

Results flagged for a closer look

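In each group of 4 to 10 arrays of a run and serum the highest or lowest array was compared with its neighbour, for 9 factors and 36 groups, and 2 groups had an array set far apart, where chance flags about 1 in 20 groups. Dbx2 on non-carrier array NCAR115 of run C had a log2 intensity of 7.0, the highest of 5, with the next at 6.59, a gap of 0.794 of the range (critical value 0.710). That array is also 1 of the 2 that a Grubbs' test called on the average correlation within its run (r = 0.990). Lhx5 on non-carrier array NCAR114 of run C had a log2 intensity of 6.49, the lowest of 5, with the next at 6.77, a gap of 0.789 of the range.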

How the results depend on the processing

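The count of the 9 factors changed by carrier serum, 0 in the reported fit, was 4 with the 4 motor neuron genes Olig2, Mnx1, Isl1 and Lhx3 beside the run (Pax6, Irx3, Dbx2 and En1, with 6126 of all genes called), 2 with array weights (Pax6 and Lhx1, with 2803 of all genes called), and 1, Lhx1, with genes below the median left out (655 of 9807 called), without the arrays called by Grubbs' test (716 called) and without run C (1601 called). It was 0 in the other alternatives.

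The count of the 59 other domain factors changed was 1 in the reported fit. In the same fits it was 26 with the 4 motor neuron genes beside the run, where 6126 of all 19613 genes were called. With array weights it was 9 (2803 of all genes called), without run C 6 (1601) and without the run motorneuron 3 (602). It was 2 with a replicate block (Olig2 and Lmo4, 513 of all genes called), with the arrays centred on their median (448) and without the Grubbs arrays (716). It was 0 with no block, with runs E and F as 1 block, with the 4 genes in place of the run, with quantile normalization, without runs E and F, in runs E and F alone, with the olfactory receptor level as a covariate (added after the data were seen), and without run A, B, D, E, F or 10wk. The cause of these shifts was not tested.

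Of 8 same-numbered pairs of arrays 1 had deviations correlated over 0.1 (r from -0.13 to 0.33). This count cannot decide whether replicate numbers pair the arrays, since taking off the mean of so few arrays constrains r. In HB9MNs, with 2 arrays of each serum, every r was 0.063 or -0.063. With the replicate block limma called 513 genes in place of 457. With quantile normalization 180 of 444 called genes were higher with carrier serum, whereas in the reported fit 0.683% of all genes were called higher and 1.65% lower.

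All 9 factors and 53 to 59 of the 59 others differed between runs in the alternatives, except that with genes below the median left out 4 factors and 31 others were called, the other factors being filtered out. No factor had a serum change differing between runs in any alternative for which this was computed.

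Some changes took the opposite sign. For Irx3 these were -0.0070 with no block, -2.54e-05 with centred arrays, -0.0047 without runs E and F, -0.0089 with the olfactory receptor level, -0.0045 without run D and -0.0098 without run F. For Dbx2 they were -0.014 with no block, -0.0097 with the replicate block, -0.0013 with centred arrays, -0.019 with quantile normalization, -0.086 in runs E and F alone, -0.036 with the olfactory receptor level, and -0.014, -0.0047 and -0.021 without motorneuron, A and D. For Lhx5 they were 0.016 with no block, 0.080 with the 4 genes beside the run and 0.15 in its place, 0.023 with array weights, 0.14 in runs E and F alone, 0.012 without the Grubbs arrays, and 0.010, 0.0030, 0.0096, 0.019 and 0.0047 without motorneuron, A, B, C and E. Gata3 gave -0.016 without runs E and F and -0.018 with the olfactory receptor level, En1 gave -0.033 with that level, -0.0022 without motorneuron and -0.00080 without run F, and Nkx2.2 gave 0.00067 with the 4 genes beside the run. Pax6, Lhx1 and Sim1 kept their sign in all alternatives.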
